A study of Mus musculus with 19 samples.

Results

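The Runx genes *Runx1*, *Runx2* and *Runx3* and the gene of their shared partner, *Cbfb*, were followed through thymocyte development in mice whose T cells were restricted to the CD4 or the CD8 lineage. The 4 genes were taken by name from the 28692 genes of the RNA count tables, and all 4 were present. In all cells kept there were 33557 unique molecular identifiers (UMIs, each standing for 1 captured RNA molecule) of *Runx1*, 36052 of *Runx3*, 25121 of *Cbfb* and 1159 of *Runx2*.

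Runx proteins bind DNA through the Runt domain, and CBFβ, which does not touch DNA itself, binds to that domain and strengthens its grip. Runx factors both silence and activate genes. In the thymus RUNX1 is known for its work in CD4-CD8- and CD4+CD8+ cells. It takes part in silencing *Cd4* in the CD4-CD8- cells. RUNX3 is known for the CD8 lineage, where it silences *Cd4* and *Zbtb7b* and activates *Cd8a*, *Itgae* and cytotoxic genes. ThPOK, the product of *Zbtb7b*, is the factor of the CD4 lineage that opposes RUNX3. RUNX2 is best known for bone formation.

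The stretch of DNA that Runx proteins recognize holds the letters TGTGGT, and all 3 Runx genes carry it as a tandem pair at 1 of their annotated promoters. Both strands of the RefSeq promoter windows, 250 bases before to 50 bases after each start on the build GRCm38.p6, were searched. The sequences are shown because the Runx genes share the pair and because *Nkg7* and *Zbtb7b*, each with a single match, recur below. Each is given 5′ to 3′ on the strand of its gene, with TGTGGT or its reverse complement ACCACA in capitals, for *Runx1* (chr16:92826025-92826054, minus strand), *Runx2* (chr17:44814583-44814612, minus strand), *Runx3* (chr4:135120503-135120532, plus strand), *Nkg7* (chr7:43437043-43437072, plus strand) and *Zbtb7b* (chr3:89387743-89387772, minus strand).
Runx1: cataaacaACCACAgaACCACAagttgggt
Runx2: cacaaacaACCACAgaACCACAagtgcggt
Runx3: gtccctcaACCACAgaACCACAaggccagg
Nkg7: gggcccacccctACCACAtaggaggagagg
Zbtb7b: ctggcgaggaacTGTGGTatgtgagtgggt
The tandem pair TGTGGTNNTGTGGT stood in 7 of 32851 promoters (0.0213%), 3 of them those of the Runx genes, and the single TGTGGT in 5506 promoters (16.8%). It covered bases 28 to 41 after the annotated start of *Runx1* and 23 to 36 after that of *Runx2*, and bases -134 to -121 before that of *Runx3*. The windows of *Cbfb* and *Cd8a* held no match, nor did those at another annotated start of *Runx1*, *Runx3* and *Zbtb7b*. A match in these letters is a description and was not tested as a binding site.

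By the GENCODE annotation of GRCm38, *Runx1* (ENSMUSG00000022952) lies at chr16:92601466-92826149 on the minus strand and *Runx2* (ENSMUSG00000039153) at chr17:44495987-44814797 on the minus strand. *Runx3* (ENSMUSG00000070691) lies at chr4:135120652-135177990 and *Cbfb* (ENSMUSG00000031885) at chr8:105170674-105217989, both on the plus strand. The counts are of RNA 3′ ends, so transcripts that start at different promoters of a Runx gene were summed.

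CITE-seq, which reads RNA and antibody-tagged surface proteins of the same cells, was run on thymi of 17 female mice aged 4 to 8 weeks. The CD4-fated mice were 2 AND and 2 OT-II mice, with transgenic T cell receptors (TCRs) that see MHC class II, and 2 MHCI-/- mice, which lack *B2m*. The CD8-fated mice were 2 F5 and 2 OT-I mice, with TCRs that see MHC class I, and 2 MHCII-/- mice, which lack *H2-Ab1*. There were also 5 wild-type mice. AND and F5 mice also lacked *Rag1*, so that they carry the transgenic TCR alone, whereas the MHC-deficient mice have diverse TCRs. Cells of MHCI-/-, MHCII-/- and wild-type replicates 1 to 3 had been sorted as CD5+TCRβ+, and the others were not sorted. All OT-I and OT-II mice and wild-type replicates 4 and 5 belonged to the third of 3 experiments, done at another site by the study's sample information, so that this family of genotypes and the site cannot be told apart.

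The 19 lanes held 2550 to 9408 barcodes and 9893333 to 43303999 RNA UMIs each, and 68991 cells were kept, with a median of 1493 to 7178 RNA UMIs per lane. Lanes shared at most 13 barcodes. Cells were placed into stages by thresholds on surface protein, after cells of RNA clusters of other cell types had been left out. These clusters were named for such types, or were unnamed and scored best on their markers. The RNA of the 4 genes was used in neither step. Of the cells kept, 23850 (34.6%) entered no gate. DP1 (20049 cells) were CD4+CD8hi cells without CD69, CD127 and TCRβ. DP2 (6016) were CD4+CD8hi CD69+ cells that lacked CD127, TCRβ or both, and CD4+CD8lo (5311) were CD69+. The study set DP2 as CD127-, whereas the DP2 gate used here also took in CD127+ cells without TCRβ. DP3 (791) were CD4+CD8hi cells with CD69, CD127 and TCRβ. CD4 SM (4763) and CD8 SM (1366) were semimature, CD69+ single-positive cells with TCRβ, CD4 Mat (3357) and CD8 Mat (2719) were their mature, CD69- successors, and DN (769) were CD4-CD8-TCRβ- cells. The RNA of the gates was checked on stage markers. Median *Rag1* over mice, in counts per 1000000 UMIs of the summed cells (CPM), was 656 in DP1 and 39.6 in DP2. AND and F5 mice, which lack *Rag1*, were at 29.1 to 89.9 in DP1 and the other mice at 401 to 3454, so that *Rag1* is no marker of stage in these 4 mice. Median *S1pr1*, a gene of mature cells, was 66.7 in CD8 SM and 203 in CD8 Mat. Single mice lay far from these medians, since *Rag1* in DP2 ran from 0 to 1624 CPM and *S1pr1* reached 74.6 in DP1 and 147 in DP2, both in OT-I replicate 2. Over its summed cells each MHCI-/- mouse had 46.9 or 48.8 CPM of *B2m*, and the other mice had 403 to 1252. RNA of *H2-Ab1* did not set the MHCII-/- mice apart, at 8.92 and 8.98 CPM next to 2.62 to 267 in the other mice, and in mature cells it was called higher in CD8-fated mice (edgeR adjusted p 0.00587), with 19.1 and 19.3 CPM in CD8 Mat cells of MHCII-/- mice. Which part of the gene these mice lack was not given in the sources used here. The antibody against I-A/I-E, the protein that *H2-Ab1* encodes a chain of, did set them apart, at 2.22 and 2.27 per 10000 antibody UMIs against 23.9 to 124 in the other mice, a check chosen after the RNA had been seen. Wild-type replicate 5 stood apart, with 248 to 267 CPM of *Rag1* in its single-positive CD8 cells against at most 24.1 in the other mice. A mouse entered a gate with at least 20 cells. F5 mice therefore gave no CD4+CD8lo sum, and among CD4-fated mice AND replicate 2 alone gave a DP3 sum.

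*Runx3* differed between the lineages from DP2 onward, and in each later gate it was higher in every CD8-fated mouse than in every CD4-fated mouse. In DP1, *Runx3* ran from 10.7 to 56.9 CPM in the 6 CD4-fated mice, with a median of 29.8, and from 25.3 to 86.8 in the 6 CD8-fated mice, with a median of 60.1. The groups overlapped, since both MHCII-/- mice were below several CD4-fated mice. In DP2 the CD4-fated mice ran from 18.9 to 81.3 CPM (median 50.5) and the CD8-fated mice from 151 to 279 (median 186), with no overlap. The highest CD4-fated mice were the OT-II mice at 77.6 and 81.3, and the lowest CD8-fated mouse was MHCII-/- replicate 2.

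In CD4+CD8lo cells the CD4-fated mice ran from 32.9 to 109 CPM (median 61.5), while MHCII-/- mice were at 125 and 162 and OT-I mice at 200 and 318. MHCI-/- mice, at 32.9 and 38.9, were lowest. In semimature cells *Runx3* was at 41.5 to 82.1 CPM (median 51.5) in the CD4 SM cells of CD4-fated mice and at 200 to 663 (median 295) in the CD8 SM cells of CD8-fated mice. F5 mice contributed only 26 and 21 CD8 SM cells, and gave 421 and 200 CPM. In mature cells the ranges were 43.4 to 80.3 (median 62.8) and 256 to 598 (median 304). Within the CD8-fated mice OT-I replicate 2 was the highest in DP2 and in every later gate.

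Genes of later stages were read in the same DP2 cells. *Nkg7*, a gene of cytotoxic granules, was at 43.9 to 170 CPM in CD8-fated and at 0 to 47.5 in CD4-fated DP2 cells, overlapping through AND replicate 1, and at 244 to 532 in CD8 SM cells of CD8-fated mice. *S1pr1* was at 5.52 and 4.23 CPM in DP2 of MHCII-/- mice, at 22.7 and 17.7 in F5 and at 32.7 and 147 in OT-I mice, against 0 to 36.5 in CD4-fated mice. The log2 difference between the lineages in DP2 was 4.11 ± 0.52 for *Nkg7* (edgeR adjusted p 0.000397) and 2.82 ± 0.73 for *S1pr1* (0.0766). The part of more mature CD8 cells within this gate in its *Runx3* and *Runx1* values was not tested.

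**Figure D1:**
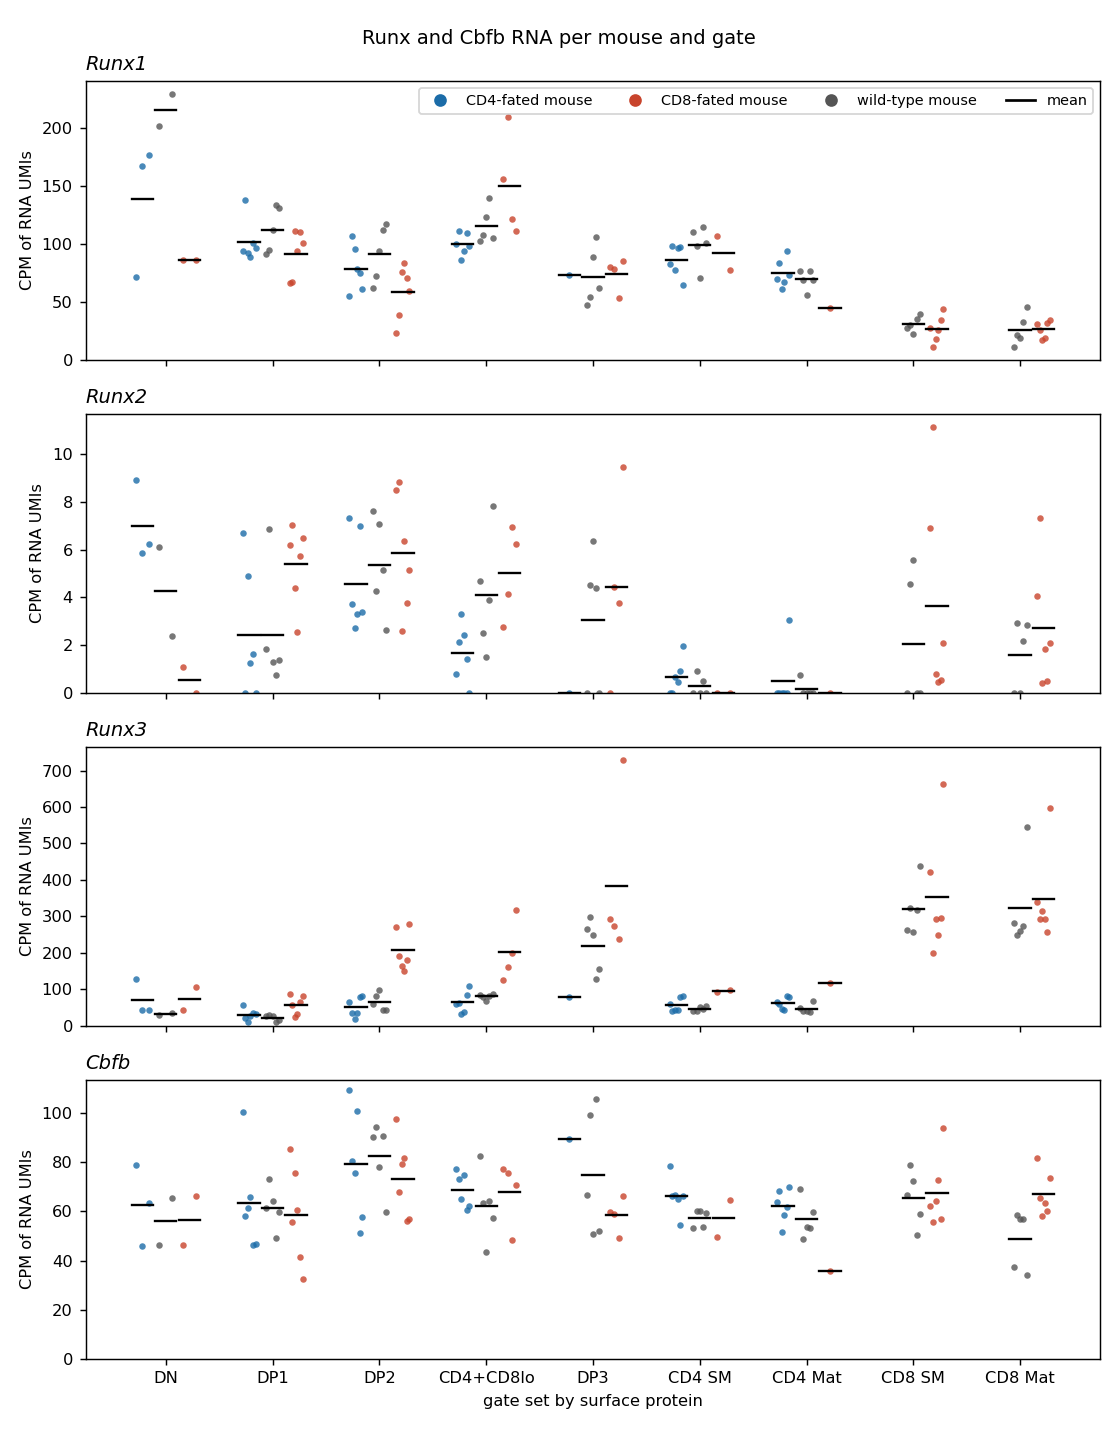
RNA of the 4 genes in CPM (vertical axes, linear, each starting at 0) per mouse and surface-protein gate, with CD4-fated mice in blue, CD8-fated in red, wild type in grey and the mean as a black bar. *Runx3* parts in DP2, where CD8-fated mice start at 151 CPM and CD4-fated mice end at 81.3. The mean of *Runx1* is lowest in both CD8 single-positive gates, though F5 replicate 1 is at 22.7 in DP2 against 27.6 and 30.9 there.

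The difference in *Runx3*, as log2 of CD8-fated over CD4-fated with its standard error, was 0.84 ± 0.22 in DP1, 2.16 ± 0.21 in DP2, 1.69 ± 0.22 in CD4+CD8lo, 2.56 ± 0.21 in semimature and 2.47 ± 0.19 in mature cells. By edgeR's quasi-likelihood test with Benjamini-Hochberg adjustment over all genes, adjusted p was 0.810, 2.95e-05, 0.00193, 3.36e-07 and 5.94e-07. In DP1 none of the 4 members was called (unadjusted p of *Runx3* 0.00176), where 0.0326% of all genes tested were. In DP2 and in CD4+CD8lo cells *Runx3* was the 1 member called of the 3 tested, where 1.15% and 0.745% of all genes tested passed. Among single-positive cells 2 of 3 members passed at each stage, *Runx3* as higher and *Runx1* as lower in CD8-fated mice, against 6.6% of all genes in semimature and 9.39% in mature cells. Each pair of genotypes taken alone gave the same order in DP2, with mean *Runx3* of 49.7 against 232 CPM for AND and F5, 79.4 against 230 for OT-II and OT-I, and 27.1 against 158 for MHCI-/- and MHCII-/-. Without the genotype pair as a covariate the CD4+CD8lo difference was 1.65, with an adjusted p of 0.0562, and no *Runx3* call of these was lost on leaving out any 1 mouse.

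**Figure D2:**
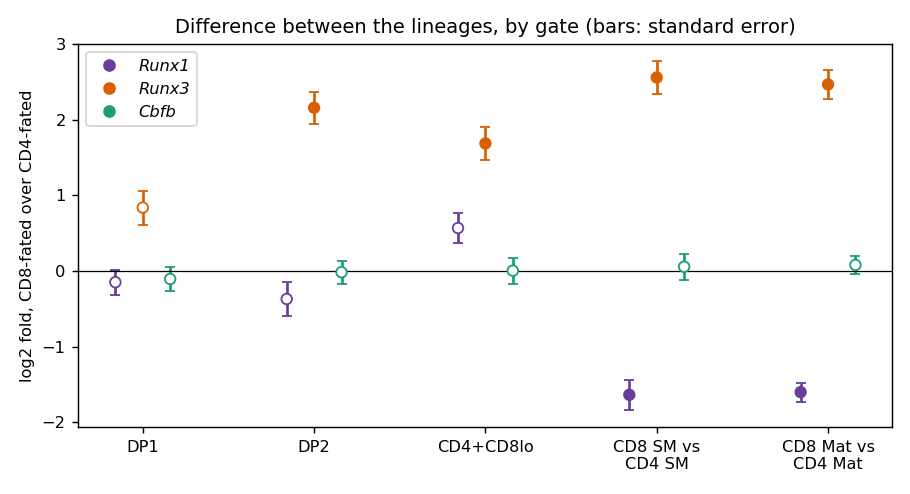
Log2 fold of CD8-fated over CD4-fated mice (vertical axis) for *Runx1*, *Runx3* and *Cbfb* by gate, with standard errors as bars, filled where edgeR's adjusted p was below 0.05 and open where it was not. *Runx3* is filled from DP2 (2.16) on, *Runx1* is filled in the single-positive gates alone (-1.63 and -1.60), and *Cbfb* stays near 0.

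*Runx1* was lower in CD8 than in CD4 single-positive cells, whereas at the earlier stages no difference between the lineages passed the test. In DP1 it ran from 88.3 to 138 CPM (median 95.2) in CD4-fated mice and from 65.8 to 111 (median 97.2) in CD8-fated mice, and in DP2 from 54.8 to 106 (median 76.3) and from 22.7 to 83.1 (median 64.8). These ranges overlapped, and both F5 mice, at 22.7 and 38.3 CPM in DP2, were the lowest of the 12. In the 2 DP gates the log2 difference was -0.15 ± 0.17 and -0.37 ± 0.23. The pairs of genotypes were unlike in DP2, with mean *Runx1* of 80.6 against 30.5 CPM for AND and F5 but 67.7 against 64.8 for OT-II and OT-I and 86.9 against 79.5 for MHCI-/- and MHCII-/-.

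In CD4+CD8lo cells *Runx1* ran from 86.3 to 111 CPM (median 98.9) in the CD4-fated mice and stood at 111 and 122 in OT-I and at 156 and 210 in MHCII-/- mice. The log2 difference was 0.57 ± 0.20, higher in CD8-fated mice, and did not pass (adjusted p 0.275). After that stage the order was the other way round. *Runx1* was at 64.5 to 98.1 CPM (median 89.4) in CD4 SM and at 11.1 to 43.3 (median 26.5) in CD8 SM cells, and at 61.1 to 94.1 (median 71.2) in CD4 Mat and at 16.8 to 34.5 (median 28.4) in CD8 Mat cells. The groups did not overlap at either stage, and the log2 differences were -1.63 ± 0.20 (adjusted p 3.49e-05) and -1.60 ± 0.13 (adjusted p 6.11e-07).

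*Cbfb*, the shared partner, differed little between the lineages. It ran from 46.4 to 100 CPM in CD4-fated and from 32.4 to 85.6 in CD8-fated DP1 cells, and from 51.2 to 110 and from 56.1 to 97.8 in DP2. In mature cells the ranges were 51.6 to 70.04 and 58.0 to 81.7, so that the groups overlapped throughout. The log2 difference was -0.10 ± 0.16 in DP1, -0.01 ± 0.15 in DP2, 0.01 ± 0.17 in CD4+CD8lo, 0.06 ± 0.17 in semimature and 0.08 ± 0.12 in mature cells. None of these 5 passed the test, and the sign of those in the DP and CD4+CD8lo gates turned under other settings and in semimature cells without OT-II replicate 1 (-0.04) or OT-I replicate 2 (-0.06). DP1 cells of the 4 OT mice held *Cbfb* at 32.4 to 46.9 CPM, below the 55.7 to 100 CPM of the other lineage-restricted mice, which were run in other experiments.

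*Runx2* was close to the limit of these counts. In DP1 it ran from 0 to 6.70 CPM in CD4-fated and from 2.56 to 7.04 in CD8-fated mice, and in DP2 from 2.70 to 7.31 and from 2.58 to 8.85. On the CD4 path it was nearly absent from the counts, with 6 UMIs in CD4 SM and 1 UMI in CD4 Mat cells of all CD4-fated mice, in which 2 and 5 of the 6 mice had none. In CD8 Mat cells F5 mice were at 4.06 and 7.33 CPM and the other CD8-fated mice at 0.420 to 2.07. *Runx2* passed the filter on low counts in DP1 among the lineage comparisons and was not called there.

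The wild-type mice hold both lineages in the same thymus, and they showed the same order of the single-positive gates. *Runx3* was at 39.9 to 55.2 CPM in their CD4 SM cells and at 257 to 438 in their CD8 SM cells, and at 38.9 to 68.9 in CD4 Mat and 249 to 545 in CD8 Mat. *Runx1* was at 70.9 to 115 and 22.3 to 39.4 in the semimature and at 55.8 to 76.8 and 10.6 to 45.6 in the mature cells. Neither gene's ranges overlapped in any of these pairs. In 1 edgeR fit over all wild-type gates with the mouse as a block, 2 of 3 members were called at each stage, *Runx3* with 2.81 ± 0.20 and 2.79 ± 0.21 (adjusted p 1.40e-14 and 8.74e-14) and *Runx1* with -1.69 ± 0.18 and -1.52 ± 0.19 (9.90e-10 and 4.91e-08), against 11.9% of genes in the semimature and 10.9% in the mature comparison. *Cbfb* was not called in either.

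Along the wild-type path *Runx3* was higher in DP2 than in DP1. It stood at 9.67 to 28.7 CPM in DP1, at 42.9 to 97.5 in DP2 and at 69.0 to 87.4 in CD4+CD8lo cells. From there it parted, to 39.9 to 55.2 in CD4 SM and to 128 to 298 in DP3 cells, where wild-type replicates 4 and 5 were lowest at 128 and 157. These 2 mice also had 251 and 788 CPM of *Rag1* in DP3 against at most 4.75 in the other wild-type mice, and the part of that in the *Runx3* value was not tested.

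From DP1 to DP2, *Runx3* rose by a log2 of 1.83 ± 0.24 (adjusted p 8.49e-08) and *Cbfb* by 0.48 ± 0.13 (0.00358), 2 of 3 members against 24.1% of all genes. *Runx1* was at -0.31 ± 0.12, which did not pass (0.0507) but did in 4 of 9 other settings (-0.25 to -0.32). From DP2 to CD4+CD8lo *Runx1* rose by 0.46 ± 0.12 (0.00510), the 1 member called (17.3% of genes), with *Runx3* at 0.52 ± 0.21 (0.0852). This *Runx1* call was lost with thresholds 25% higher (0.34), and *Runx3* passed with every gene kept (0.50), with thresholds 25% lower (0.83) and with other cell types kept (0.57). From CD4+CD8lo to CD4 SM *Runx3* fell by 0.69 ± 0.21 (0.0162), again 1 member (15.7% of genes) and lost with DESeq2 (-0.65), and from CD4 SM to CD4 Mat none passed (9.92% of genes), with *Runx1* at -0.37 ± 0.12 (0.0502). That value lay at the threshold and passed in 7 of 9 other settings, from -0.50 with library size alone to -0.37 with DESeq2, but not with thresholds 25% lower (-0.35) or with no block (-0.39). The rise of *Cbfb* did not pass when other cell types were kept (0.20).

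Toward the CD8 lineage, from CD4+CD8lo to DP3, *Runx3* rose by 1.43 ± 0.23 (adjusted p 0.000165) and *Runx1* fell by 0.77 ± 0.19 (0.0244), 2 of 3 members where 1.21% of genes passed. *Runx1* fell by a further 0.97 ± 0.25 from DP3 to CD8 SM (0.0130; 4.93% of genes), where *Runx3* was at 0.69 ± 0.22 (0.0512) and passed in 5 of 9 other settings, from 0.61 with other cell types kept to 0.93 with at least 50 cells. From CD8 SM to CD8 Mat no member passed (4.08% of genes). The fall of *Runx1* to DP3 did not pass with at least 50 cells (-0.88), thresholds 25% higher (-0.73) or doublets kept (-0.55), nor that from DP3 to CD8 SM with at least 50 cells (-0.85) or thresholds 25% higher (-0.79). With no block, 5 of the wild-type calls along these steps were lost, as were all 3 of CD4-fated mice and 4 of 6 of CD8-fated mice. Single mice decided some of these calls: *Runx3* from CD4+CD8lo to CD4 SM did not pass without replicate 1 (-0.63) or 2 (-0.65), nor did *Runx1* from CD4+CD8lo to DP3 (-0.71 and -0.74), *Runx1* from DP2 to CD4+CD8lo without replicate 2 (0.41), *Runx1* from DP3 to CD8 SM without replicate 3 (-0.78) or 4 (-0.82), or *Cbfb* from DP1 to DP2 without replicate 4 (0.32). *Runx3* from DP3 to CD8 SM passed without replicate 1 (0.92), 2 (0.81) or 3 (0.84), and from DP2 to CD4+CD8lo without replicate 2 (0.68) or 3 (0.70), while *Runx1* without replicate 5 passed from DP1 to DP2 (-0.32) and from CD4 SM to CD4 Mat (-0.37).

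In CD4-fated mice the step of *Runx3* past the threshold was that from DP1 to DP2. From DP1 to DP2 it rose by 0.91 ± 0.19 (edgeR adjusted p 0.000775) and *Cbfb* by 0.42 ± 0.12 (0.0155), 2 of 3 members against 11.5% of genes, with *Runx1* at -0.28 ± 0.11 (0.0906). From DP2 to CD4+CD8lo *Runx1* rose by 0.45 ± 0.11 (0.00196), the 1 member called (18.2% of genes), with *Runx3* at 0.45 ± 0.17 (0.0581). This *Runx1* call was lost with thresholds 25% higher (0.31), and *Runx3* passed with every gene kept (0.46), with thresholds 25% lower (0.54) and with other cell types kept (0.65). None was called from CD4+CD8lo to CD4 SM (11.6% of genes) or from CD4 SM to CD4 Mat (5.13%). The rise of *Runx3* at DP2 did not pass without OT-II replicate 1 (0.72) and that of *Cbfb* without MHCI-/- replicate 2 (0.33), with other cell types kept (0.13) or with thresholds 25% higher (0.36), while *Runx3* from DP2 to CD4+CD8lo passed without AND replicate 1 (0.50) and *Runx1* from DP1 to DP2 without MHCI-/- replicate 1 (-0.37).

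In CD8-fated mice *Runx3* rose from DP1 to DP2 by 1.93 ± 0.17 (edgeR adjusted p 1.11e-11) and *Cbfb* by 0.35 ± 0.11 (0.0214), 2 of 4 members against 23.4% of genes, with *Runx1* at -0.44 ± 0.17 (0.0597). With other cell types kept *Cbfb* was at 0.017 and did not pass (0.928), nor did it with library size alone (0.28) or thresholds 25% higher (0.35), while *Runx1* passed with DESeq2 (-0.55), every gene kept (-0.45) and library size alone (-0.54). *Runx1* then rose by 1.12 ± 0.18 from DP2 to CD4+CD8lo (0.000109), the 1 member called where 1.66% of genes were. From CD4+CD8lo to DP3 *Runx3* rose by 0.89 ± 0.19 (0.0102) and *Runx1* fell by 0.92 ± 0.22 (0.0309), 2 of 4 members against 1.06% of genes. DP3 cells of MHCII-/- mice were at 292 and 275 CPM of *Runx3*, those of OT-I mice at 238 and 728. *Runx1* fell by a further 1.26 ± 0.26 from DP3 to CD8 SM (0.00547; 2.28% of genes), and no member was called from CD8 SM to CD8 Mat (1.61%).

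The later of these CD8 steps rest on few mice, since MHCII-/- and OT-I mice alone hold CD4+CD8lo and DP3 sums. Without MHCII-/- replicate 1 or 2 the calls from CD4+CD8lo to DP3 (*Runx3* 0.77 and 0.90, *Runx1* -0.99 and -0.75), of *Runx1* from DP3 to CD8 SM (-1.05 and -1.14) and of *Cbfb* from DP1 to DP2 (0.38 and 0.28) did not pass. Without OT-I replicate 1 those of *Runx1* to DP3 (-0.93) and of *Cbfb* (0.33) did not, and without OT-I replicate 2 that of *Runx3* to DP3 (0.85). *Runx1* from DP1 to DP2 passed without MHCII-/- replicate 2 (-0.61). With thresholds 25% higher the calls of *Runx3* (0.76) and *Runx1* (-1.05) to DP3 and of *Runx1* to CD8 SM (-1.07) were lost, and that of *Runx1* to DP3 also with at least 50 cells (-0.84) and with other cell types kept (-0.78). The background moved as well, since the 102 genes called from CD4+CD8lo to DP3 became 11 to 130 and the 219 from DP3 to CD8 SM 14 to 290 without 1 mouse.

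**Figure D3:**
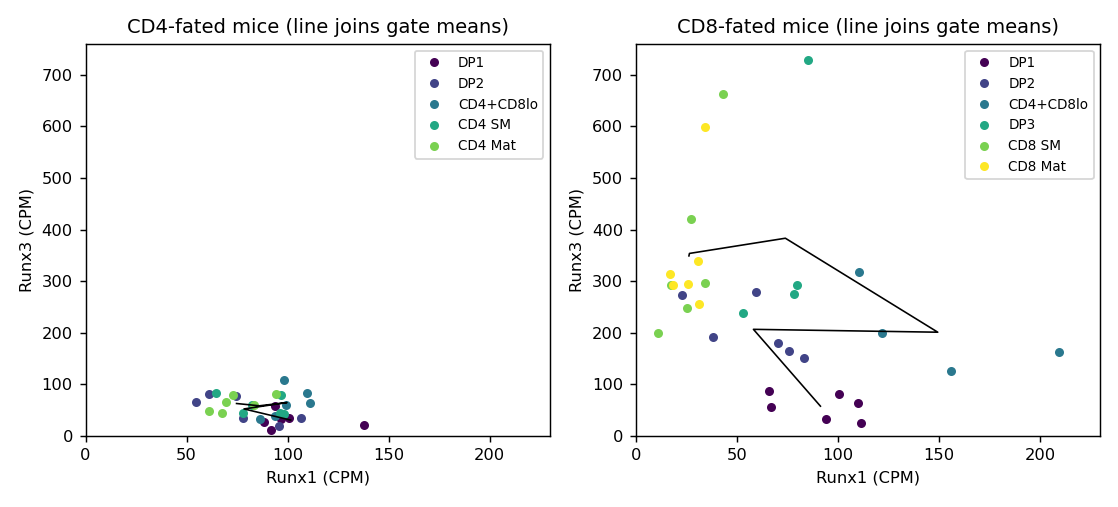
*Runx3* against *Runx1* in CPM (linear axes) for each mouse and gate, CD4-fated mice on the left and CD8-fated mice on the right, with a line through the gate means in order of development, of which those of CD4+CD8lo and DP3 in CD8-fated mice hold no F5 mouse. From DP1 on CD4-fated mice reach at most 109 CPM of *Runx3*, whereas in CD8-fated mice *Runx3* is at 151 CPM or more in the DP2 gate, whose cells also held *Nkg7*, *Runx1* reaches 210 CPM in CD4+CD8lo cells, and both CD8 single-positive gates lie at high *Runx3* and low *Runx1*.

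Whether the steps differed between the lineages was tested in a fit over both, chosen after the data had been seen. The rise of *Runx3* from DP1 to DP2 was larger in CD8-fated than in CD4-fated mice by a log2 of 1.12 ± 0.22 (edgeR adjusted p 0.00240, 12 mice), 1 of 3 members against 1.88% of genes. The rise of *Runx1* from DP2 to CD4+CD8lo was also larger in CD8-fated mice, by 0.64 ± 0.16 (0.0144, 10 mice), 1 of 3 members against 7% of genes. The pairs of genotypes were unlike in this rise. Mean *Runx1* went from 86.9 to 90.0 CPM in MHCI-/- and from 79.5 to 183 in MHCII-/- mice. In OT-II mice it went from 67.7 to 104 and in OT-I mice from 64.8 to 116. For *Runx3* the latter step differed by -0.44 ± 0.17, which did not pass (0.143). The part of more mature CD8 cells within the DP2 gate of CD8-fated mice in these differences was not tested.

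Single cells showed the same order in the share of cells with a *Runx3* UMI. Each cell was thinned to 1500 RNA UMIs, since depth differed between lanes, and shallower cells were left out, at most 361 of a tested mouse and gate (DP1 of OT-II replicate 2). In DP1 the share was 2.10 to 10.5% in CD4-fated and 2.82 to 11.6% in CD8-fated mice, and it is no background level, since DP1 cells of MHCI-/- and MHCII-/- mice came from CD5+TCRβ+ sorts and free RNA was not measured. In DP2 it was 1.41 to 10.4% (median 5.50%) and 15.3 to 30.5% (median 22.0%), so that the CD8-fated mice alone were above all DP1 shares. Both OT-II mice were nonetheless higher in DP2 than in their own DP1 cells, at 10.4 against 4.92% and 10.3 against 5.75%, as was AND replicate 2 (5.51 against 5.06%). AND replicate 1 (5.48 against 10.5%) and both MHCI-/- mice (1.41 against 2.10% and 3.64 against 4.14%) were lower in DP2. In CD4+CD8lo cells it was 3.93 to 12.1% and 14.1 to 30.6%, in semimature cells 5.34 to 11.5% and 32.2 to 60.8%, and in mature cells 5.35 to 11.4% and 33.6 to 53.8%. The groups did not overlap in these 4 gates. By a two-sided exact permutation test over mice p was 0.483 in DP1, 0.00216 in DP2 and in mature cells, 0.00952 in CD4+CD8lo cells (6 against 4 mice) and 0.00433 in semimature cells (6 against 5, F5 replicate 2 falling below 20 cells), the last 4 being the smallest these designs allow, and at most 0.0159 after adjustment over the 15 share tests. Before thinning, mean shares in CD8 Mat and CD4 Mat cells were 82.9 and 22.9%.

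*Zbtb7b*, the antagonist, had the opposite order. Its share in CD4+CD8lo cells was 9.55 to 17.8% in CD4-fated mice, against 0.784 and 0.732% in MHCII-/- and 3.99 and 6.55% in OT-I mice. In CD8 SM cells of CD8-fated mice it was 0% in 4 of 5 mice, where a count of 0 allows 1.32 to 11.5%, and in CD4 SM cells of CD4-fated mice 8.88 to 14.7%. Cells with UMIs of both *Runx3* and *Zbtb7b* made up 0 to 3.45% of CD4+CD8lo cells in CD4-fated (mean 1.48%) and 0 to 0.992% in CD8-fated mice (mean 0.371%, exact permutation p 0.0952), and this passed without MHCI-/- replicate 1 (a difference of -1.40 percentage points). In AND mice the share with both was 1.37 and 1.49%, next to 1.41 and 1.54% as the product of the 2 single shares, in OT-I mice 0.249 and 0.992% next to 0.955 and 2.00%, and in OT-II mice 2.05 and 3.45%, each above its product. The share was thus above the product in some mice and below it in others, and this was not tested. These shares and their limits cover counting error only.

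**Figure D4:**
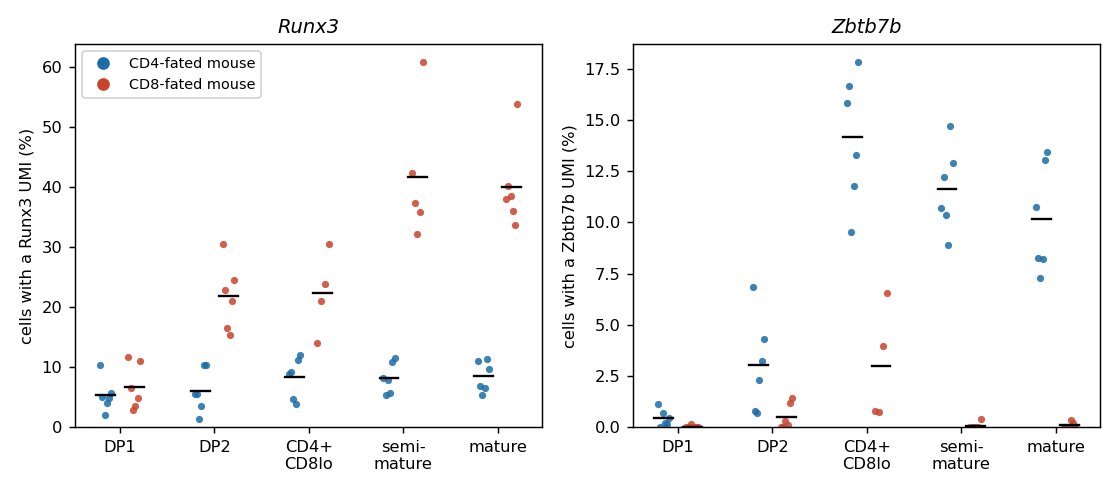
Share of cells with at least 1 UMI of *Runx3* (left) or *Zbtb7b* (right), in percent, after thinning to 1500 UMIs per cell, per CD4-fated (blue) and CD8-fated (red) mouse and stage, with means as black bars. For *Runx3* the mice overlap in DP1 alone. *Zbtb7b* has its highest mean in CD4+CD8lo cells of CD4-fated mice, at 9.55 to 17.8% per mouse, overlapping the 8.88 to 14.7% of their CD4 SM cells.

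CD103, the protein of the Runx3-dependent gene *Itgae*, was read by an antibody that was not used for the gates. Per 10000 antibody UMIs it stood at 6.68 to 61.1 in CD4 SM cells of CD4-fated mice and at 55.4 to 163 in CD8 SM cells of CD8-fated mice, with an overlap through AND replicate 2. In mature cells it was at 5.93 to 58.6 and at 67.7 to 234, without overlap. Means were 30.9 ± 21.4 and 92.7 ± 49.99 (SD, n = 6 and 6, two-sided exact permutation p 0.00866) and 30.3 ± 21.0 and 138 ± 70.6 (p 0.00216, the smallest possible). CD4 Mat cells of OT-II mice were at 6.64 and 5.93 and those of AND mice at 46.0 and 58.6, and genotype and experiment cannot be told apart there. The DP1 cells already differed in this way, at 8.24 and 8.56 in OT-II, 30.4 and 32.8 in MHCI-/- and 34.3 and 48.8 in AND mice. The permutation test took no account of the genotype pair. Within each pair of genotypes the CD8 Mat cells were higher in both mice.

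From DN to DP1 cells *Runx1* and *Runx3* fell on average, though not in every mouse. In the 7 unsorted mice with DN cells *Runx1* was at 71.2 to 230 CPM, highest in the wild-type mice at 201 and 230, and *Runx3* at 30.6 to 127, highest in AND replicate 1. *Runx1* was lower in DN than in DP1 cells in AND replicate 1 (71.2 against 93.7) and OT-I replicate 2 (86.2 against 100.5), and *Runx3* in F5 replicate 2 (43.1 against 55.9). The gate held the pre-TCR gene *Ptcra* at 29.8 to 383 CPM. From DN to DP1 *Runx1* fell by 0.71 ± 0.13 (edgeR adjusted p 0.000401) and *Runx3* by 0.84 ± 0.21 (0.00291). These were 2 of 4 members where 67.1% of all genes passed, so that a call here does not set them apart from other genes. *Runx2*, at 0 to 8.90 CPM in DN cells, was at -1.49 ± 0.64 (0.0550). That value passed without F5 replicate 2 (-2.14), OT-I replicate 2 (-1.63) or wild-type replicate 5 (-1.56), and in 5 of 9 other settings, at up to -3.09 with thresholds 25% lower and -2.53 with at least 50 cells.

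The 4 genes spread differently over cell types outside the main path. Clusters were formed on RNA without the 4 genes and named from fixed markers, so that their levels are descriptions. Clusters that the markers did not name are left out of these levels. *Runx3* had median levels of 272 CPM over 7 mice in CD8 SP-like cells, 260 over 6 mice in gamma-delta T-like cells, 187 over 7 mice in NKT-like cells and 126 over 3 mice in B-like cells (77 cells). The ranges of CD8 SP-like (245 to 301) and gamma-delta T-like cells (242 to 343) overlapped, as did those of NKT-like (111 to 267) and B-like cells (108 to 179). CD8 SP-like and gamma-delta T-like values came from different mice except for OT-I replicate 1, at 270 and 252 CPM. OT-I replicate 2 and wild-type replicate 5, at 598 and 545 CPM in CD8 Mat cells, gave no CD8 SP-like value, nor did F5 mice. DN-like, Treg-like and CD4 SP-like cells followed at 67.8, 61.6 and 54.7, within each other's ranges, and quiescent DP-like cells were lowest at 15.1. These medians pool genotypes, and *Runx3* was at 110 to 128 CPM in Treg-like and 103 to 114 in CD4 SP-like cells of CD8-fated mice, above the 21.1 to 82.4 and 38.3 to 78.1 of the other mice.

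*Runx1* had medians of 173 CPM in DN-like (108 to 345 over 8 mice), 142 in gamma-delta T-like (112 to 179) and 137 in quiescent DP-like cells (113 to 164), with overlapping ranges. The DN-like median was 272 with doublets kept, and its highest mice were wild type, at 305 and 345, which had fewer than 20 gamma-delta T-like cells and gave no value for them. In AND replicate 1 (108 against 112) and OT-I replicate 2 (151 against 179) DN-like cells were below gamma-delta T-like cells. Values for gamma-delta T-like cells came from AND, OT-II and OT-I mice alone, all with transgenic TCRs. AND replicate 1 gave 433 of these cells, though AND mice lack *Rag1* and carry the transgenic TCR alone. The name thus stands for RNA markers and not for the receptor of the cells. NKT-like cells were at 37.4 and CD8 SP-like cells, the lowest, at 21.2, with overlapping ranges. *Runx2* had medians of 12.3 CPM in NKT-like (2.80 to 18.7, from 32 UMIs), 9.48 in DN-like (5.03 to 14.0) and 7.27 in gamma-delta T-like cells (0 to 13.8), with overlapping ranges. *Cbfb* had a median of 98.7 in signaled DP-like cells (49.6 to 114), within the ranges of negative selection-like (46.8 to 117) and cycling cells (64.7 to 117), and of 23.1 in B-like cells, from 11 UMIs in 77 cells. A cluster of 321 cells led by globin and *Cd74* RNA was named for erythrocytes by its markers, but it mixed cell types and is not described under that name. It held the highest median of *Runx2*, 29.1 CPM (0 to 194 over 6 mice, 116 UMIs in 244 cells).

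**Figure D5:**
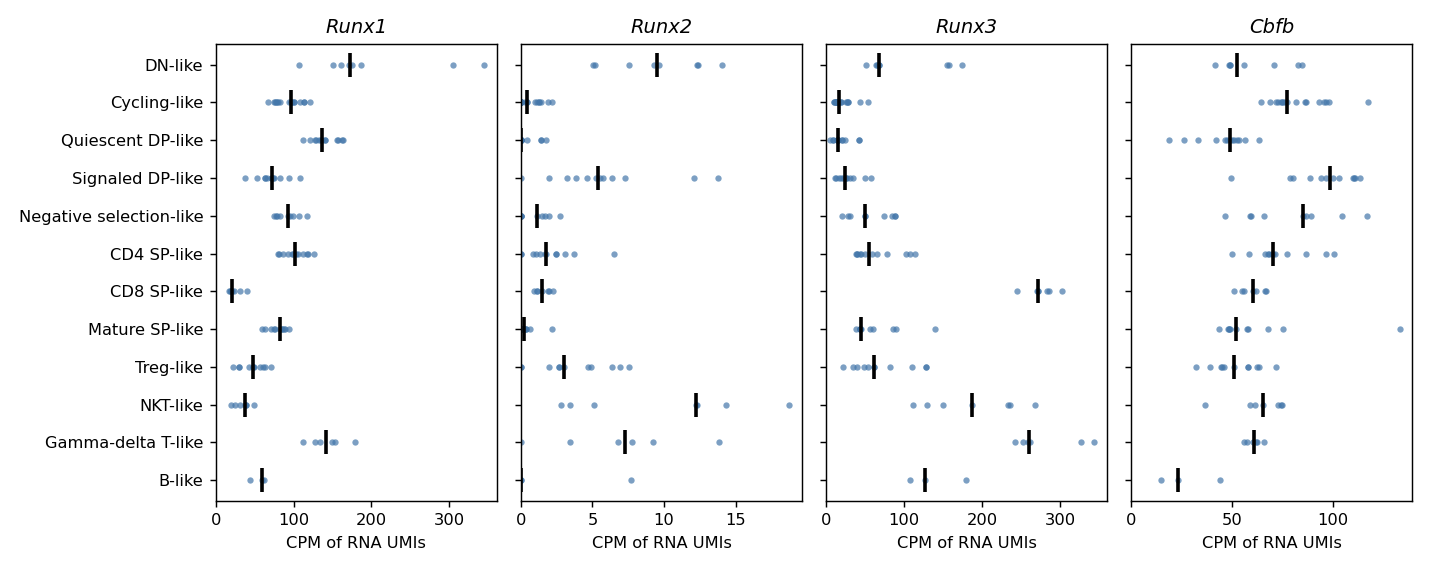
CPM of the 4 genes (horizontal axes, linear from 0) per mouse in RNA clusters named from fixed markers, with a black tick at the median over mice. *Runx3* is high in CD8 SP-like (272) and gamma-delta T-like cells (260), and *Runx1* runs from 108 to 345 in DN-like cells. The cluster led by globin and *Cd74* RNA is not drawn.

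Genes known as Runx targets are given as a description of a list chosen with earlier results known. Of 8 genes of the CD8 side, 3 were tested in DP2 and 1, *Nkg7*, was called (1.15% of all genes), while *Cd8a* and *Cd8b1* were at 0.12 and 0.073. From DP1 to DP2, in wild-type and in CD8-fated mice alike, *Nkg7* rose and *Cd8a*, *Cd8b1* and *Cd4* fell, where 24.1% and 23.4% of all genes were called. *Il2rb*, *Itgae* and *Zbtb7b* were called as higher too, but these fits filtered low counts over all gates at once. *Il2rb* and *Itgae* were too low for the lineage tests in DP1 and DP2, and *Zbtb7b* for that in DP1. Median *Itgae* over mice was 0.782 CPM in DP1 and 1.90 in DP2. These genes entered through other gates, so that their calls are not counted. In CD4-fated mice (11.5%) *Cd8a*, *Cd8b1* and *Cd4* fell too, and the call of *Zbtb7b* as higher is not counted for the same reason. In the later gates several of these genes were nearly absent from CD4-fated mice and entered the test through the CD8-fated mice alone, so that their calls there are not counted. *Nkg7* was at no more than 13.6 CPM in CD4 SM cells of CD4-fated and at 244 to 532 in CD8 SM cells of CD8-fated mice. *Itgae*, which encodes the αE integrin chain, was at 0 to 0.884 in the former, and in the latter at 0 and 11.1 in F5 and at 95.7 to 140 in MHCII-/- and OT-I mice, so that the groups overlapped through F5 replicate 1. The CD4 side is *Cd4* and *Zbtb7b*, and *Cd4* was lower in CD8-fated DP2 cells (-1.06 ± 0.24; 1.15% of all genes). *Zbtb7b* was at -2.86 ± 0.55 there, with a UMI in 0 to 1.44% of thinned cells in CD8-fated and 0.707 to 6.85% in CD4-fated mice. It entered that test through the CD4-fated mice, so that its call is not counted. *Zbtb7b* alone was lower in CD4+CD8lo cells (0.745%), and *Cd4* was lower in semimature and mature cells (6.6% and 9.39%). *Zbtb7b* was at 0 to 1.51 CPM in CD8 SM and 0 to 2.11 in CD8 Mat cells, so that its calls there are not counted either. CD4 and CD8 protein set the gates, so that *Cd4*, *Cd8a* and *Cd8b1* are bound to the choice of cells at the single-positive stages.

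The 18 Runx cofactor genes were those of corepressors (TLE family, ETO family, SIN3A, HDACs), coactivators (*Ep300*, *Crebbp*, *Kat6a*, *Kmt2a*), and other partners. None was called between the lineages in DP1 (18 tested), DP2 (16) or CD4+CD8lo cells (15). Of all genes 0.0326%, 1.15% and 0.745% were called there, so that the lack of a call is no result about the list. *Ets1*, whose protein binds DNA together with RUNX1, was lower in CD8-fated semimature cells by a log2 of -0.54 ± 0.14 and in mature cells (-0.49 ± 0.12), and *Cdk6*, a cell cycle kinase that binds RUNX1, was higher in mature cells (0.71 ± 0.20). That is 1 of 15 tested in semimature and 2 of 16 in mature cells, beside 6.6% and 9.39% of all genes. These counts are near the share of all genes and are no result about the list either. The list's median log2 difference was -0.13 and 0.10 in these gates, against -0.03 and 0.01 over all genes. In wild-type mice 4 of 18 rose (*Ets1*, *Prmt1*, *Tle3*, *Tle4*) and 3 fell (*Aes*, *Cbfa2t3*, *Tle2*) from DP1 to DP2, where 24.1% of all genes were called, with a median of -0.15 against -0.04 over all genes.

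Of the 11 regulators of the CD4 and CD8 choice, *Zbtb7b* alone was called in CD4+CD8lo cells (0.745% of all genes). In DP2 (1.15%) no other regulator was called, and *Zbtb7b* entered that test through the CD4-fated mice, so that its call is not counted. In semimature cells *Bcl11b*, *Gata3* and *Tcf7* were lower in CD8-fated mice and *Zbtb7a* was higher, where 6.6% of all genes were called. *Zbtb7b* was at 0 to 1.51 CPM in CD8 SM and at 0 to 2.11 in CD8 Mat cells. It entered these tests through the CD4-fated mice, so that its calls there are not counted. The list median, with *Zbtb7b* in it, was -0.52 against -0.03 over all genes. In mature cells *Bcl11b* and *Gata3* were lower and *Zbtb7a* was higher, where 9.39% of all genes were called, with a median of -0.39 against 0.01. *Gata3*, which acts upstream of ThPOK, differed by -1.40 ± 0.27 in semimature cells.

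Over the 113 sums of a mouse and a gate, which share mice and lanes, the genes whose log2 CPM followed *Runx3* most closely among 8936 were *Nkg7* (Pearson's r 0.83), *Adgrg5* (0.83), *Glipr2* (0.80), *Cyth4* (0.76) and *Crtam* (0.73). Those of *Runx1* were *Bcl11b* (0.69), *Tbc1d4* (0.68), *Atxn7l1* (0.68), *Ptms* (0.67) and *Ptprf* (0.67), and *Cyth4* and *Glipr2* stood at its opposite end (-0.74 and -0.70). For *Cbfb* the highest were *Puf60* (0.52) and *Arf3* (0.51). *Runx1* and *Runx3* were correlated at -0.65, *Cbfb* at 0.04 with *Runx3* and at 0.0049 with *Runx1*.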

How the data were processed

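The authors deposited UMI counts per gene, antibody and barcode for each lane, not normalized. Per the labels and the submitters' processing notes they were made with Cell Ranger 3.1.0 on mm10 (GRCm38). Pooled matrices were not used here. Barcodes had to have at least 200 genes, at most 15% mitochondrial UMIs, 1000 to 10000 antibody UMIs and at least 70 proteins detected. In each lane 0.8% per 1000 barcodes were called doublets and removed. Cells of clusters named for other cell types, or unnamed and scoring best on their markers, were left out of gates. Protein thresholds were set by Otsu's method. Both lanes of wild-type replicates 4 and 5 were summed.

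RNA counts were summed per mouse and gate and tested with edgeR 4.0.16 (R 4.3.3; quasi-likelihood, TMM, low-count filter, Benjamini-Hochberg, threshold 0.05), the mouse being the replicate, with the genotype pair as covariate between lineages and the mouse as block along steps. P-values of edgeR measure the spread left after these terms, between mice for the lineages and between gates of a mouse for the steps. Scripts were tested on simulated data. Alternatives were DESeq2 1.42.0, library size alone, no low-count filter, no covariate or block, at least 50 cells, thresholds 25% lower or higher, other cell types or doublets kept, and each mouse left out. Shares and CD103 were compared by exact permutation. The named genes are the 4 members, fixed lists of cofactors, targets and regulators, and the 5 genes most alike to each member (mean of at least 5 CPM, log2 of CPM + 1). Members and lists were chosen with earlier results of these data known. Promoters come from RefSeq tables.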

Additional observations from a re-analysis of the deposited data

Results flagged for a closer look

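In 57 groups of 4 to 6 mice, 5 had 1 mouse far from the others, where chance gives about 1 in 20. *Runx3* in CD8 Mat cells of OT-I replicate 2 was at 598 CPM against 256 to 339 in the other CD8-fated mice, and in its DP3 cells at 728 CPM against 238 to 292. *Runx3* in CD8 Mat cells of wild-type replicate 5 was at 545 CPM against 249 to 282. In those CD8 Mat cells *S1pr1* was at 473 CPM in OT-I replicate 2 and at 454 in wild-type replicate 5, against 138 to 256 in the other mice, and *Rag1* at 2.07 and 248 CPM. These CD8 Mat cells were also the shallowest, with a median of 3935 and 3528 RNA UMIs against 4399 to 10322 in the other mice. The part of depth in the *Runx3* values was not tested. *Cbfb* in DP1 cells of AND replicate 1 was at 100.4 CPM against 46.4 to 66.0, and *Runx1* in DP1 cells of AND replicate 2 at 138 CPM against 88.3 to 101. The AND mice had 88 and 80 DP1 cells.

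The step of *Runx3* from DP1 to DP2 differed between the lineages by a log2 of 1.12, and that of *Runx1* from DP2 to CD4+CD8lo by 0.64, each in a test of the difference itself. Both steps involve the DP2 gate, in which the part of more mature CD8 cells was not tested.

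Some cells lay outside the comparisons. CD4 SM cells of OT-I mice, 47 and 56 cells, held *Runx3* at 91.7 and 97.0 CPM and *Runx1* at 107 and 77.6, where CD4 SM cells of CD4-fated mice were at 41.5 to 82.1 and 64.5 to 98.1. The 35 DP3 cells of AND replicate 2 held *Runx3* at 78.5 CPM, where wild-type DP3 cells were at 128 to 298. The antisense transcript *Runx2os1*, within *Runx2*, had 136 UMIs in 132 cells.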

How the results depend on the processing

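No result of the 4 genes that passed the test changed sign under any alternative run. Over the other settings 225 of these stayed past the threshold and 33 did not, and over the runs without 1 mouse 172 and 21. Of results that did not pass, 33 passed over the settings and 13 without 1 mouse, and 51 turned sign over the settings and 34 without 1 mouse, among them *Cbfb* between the lineages in DP2 (0.012 with every gene kept, 0.035 and 0.076 with thresholds 25% lower and higher, 0.047 with other cell types kept, 0.020 with doublets kept), in CD4+CD8lo (-0.084 without the genotype pair, -0.026 with the replicate block, -0.13 with thresholds 25% higher) and in DP1 (0.10 with thresholds 25% lower, 0.12 with other cell types kept). Without 1 mouse *Cbfb* ran from -0.079 to 0.070 in DP2, from -0.10 to 0.13 in CD4+CD8lo and from -0.057 to 0.15 in semimature cells, and *Runx1* in DP1 from -0.22 to 0.020 (without AND replicate 2). *Runx3* in DP1 passed with every gene kept (0.85), and in CD4+CD8lo did not pass without the genotype pair (1.65). The causes were not tested.

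The number of member calls between lineages within gates was 1 without the genotype pair, against 2. Along steps it was 6, 0, 2 and 1 with no replicate block in wild-type, CD4-fated, CD8-fated mice and from DN to DP1, against 11, 3, 6 and 2 with the mouse as block, and with thresholds 25% higher it was 1 for CD4-fated and 2 for CD8-fated steps. Without 1 mouse the CD8-fated steps gave 2 to 6 calls. *Cbfb* from DP1 to DP2 did not pass with other cell types kept (0.20, 0.13 and 0.017 along the wild-type, CD4-fated and CD8-fated path). Same-numbered mice were correlated in their deviations at 0.034 to 0.149 for AND and F5, which shared an experiment by number, at 0.47 to 0.56 for OT-II and OT-I and at -0.0044 to 0.016 for MHCI-/- and MHCII-/-, so the numbers were not treated as pairs throughout. The replicate block changed no call of *Runx1*, *Runx3* or *Cbfb* between the lineages. With the replicate block between lineages 8 genes were called in DP1 against 3, 265 in DP2 against 86, 214 in CD4+CD8lo against 66 and 959 in semimature cells against 569. Over the other settings the genes called ran from 0 to 66 in DP1, 16 to 287 in DP2, 32 to 257 in CD4+CD8lo, 239 to 959 in semimature and 315 to 1304 in mature cells. Levels in clusters moved with doublets kept for *Runx1* in DN-like (272) and negative selection-like cells (76.6), and the share with both UMIs in semimature cells did not pass when cells were thinned to 1000 (-0.48 percentage points). *Runx2* had 1159 UMIs in all cells kept, which limits what could be seen of it.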
